A study of Mus musculus with 4 samples.

Results

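The comparison described here is between the hearts of older mice with and without PIMT, the trimethylguanosine synthase encoded by Tgs1. PIMT adds methyl groups to the caps of small nuclear and nucleolar RNAs and binds the nuclear receptor coactivator NCOA6. It was removed from cardiomyocytes by crossing mice that carry loxP sites around exons 3 and 4 (PIMT fl/fl) with α-MyHC-Cre mice, whose recombinase is driven by the α-myosin heavy chain promoter from late gestation. Both groups were 6 months old, on a C57BL6/J background, with males and females together. The control group was PIMT fl/fl and the deleted group csPIMT-/-. Whether the control mice lacked the Cre transgene, which is itself active in cardiomyocytes, is not given by the labels. RNA of 5 hearts was pooled into 1 library per group, so no replicate stands behind any value, and no p-value is given for a single gene or gene group. A second pair of libraries, made the same way at 2 months, is used only for values side by side.

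The members were all genes with 10 or more reads in at least 1 of the 6-month libraries, which were 15218 of the 23337 gene symbols listed. The deposited values are reads divided by a factor of each library. Dividing by the smallest value above 0 gave whole reads, 40705783 in the control and 36172093 in csPIMT-/-. Ratios are csPIMT-/- over control after the csPIMT-/- reads were scaled by 1.15, the median-of-ratios factor. Each ratio carries an exact 95% interval that covers counting error only, not the spread between hearts. A gene is called lower or higher where its ratio is below 0.5 or above 2. By that rule 3917 genes were lower, 25.7% of those compared, and 2428 were higher, 16.0%. Between the controls of 6 and 2 months, 5.21% were lower and 8.15% higher at the later age.

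Failing hearts are known for a set of shared changes. Stretched cardiomyocytes turn on natriuretic peptides and fetal isoforms of the contractile proteins, while the use of fatty acids gives way to glucose. Fibroblasts meanwhile lay down matrix, and calcium handling slows. The gene groups below were drawn up along these lines and follow the order from the cardiomyocyte to the other cells of the heart. A heart is a mixture of cells, so fewer cells of a type and less RNA per cell cannot be told apart here.

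The GC content of the transcript moved with the ratio over all genes, so GC-adjusted counts or medians are given beside most gene groups. Genes whose longest transcript holds 35 to 40% GC had a median ratio of 0.310, those of 45 to 50% had 0.774 and those of 60 to 65% had 1.71. Spearman's rho over 15057 genes was 0.607, given as a description across genes of 1 pair of libraries. The 2-month pair ran the same way, from 0.329 to 1.66, whereas the controls of both ages ran the other way, from 1.32 to 0.853. Transcripts over 8000 bases also had a lower median, 0.665, than those under 1000 bases, 1.40. After the GC trend was subtracted those medians were 0.895 and 1.18. Once the trend was subtracted, 13.4% of genes were lower and 14.2% higher. These shares, and the 25.7% and 16.0% before it, are those to set beside the counts of every gene group below. What part GC content, length or RNA quality has in the ratios was not tested. A reader should therefore take a low ratio of an AT-rich gene together with its GC-adjusted ratio, which is the ratio divided by the local trend. The same holds for a high ratio of a GC-rich gene, and some of those are printed without adjustment.

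**Figure D1:**
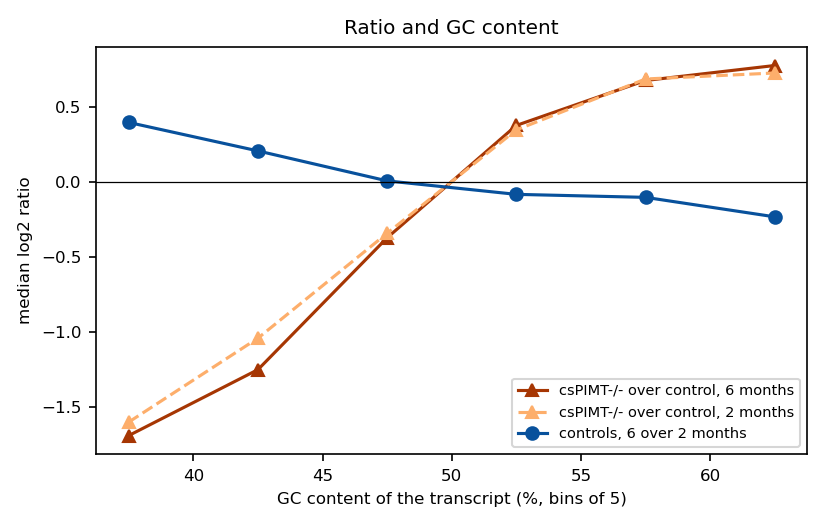
Median log2 ratio of genes in 5% bins of transcript GC content for csPIMT-/- over control at 6 months and 2 months and for the control libraries, 6 over 2 months. The 6-month line climbs from -1.69 at the lowest bin to 0.78 at the highest, and the line of the controls falls from 0.40 to -0.23.

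Tgs1 itself, at chromosome 4:3574875-3616619 on the plus strand of GRCm38, had 928 reads in the 6-month control and 156 in csPIMT-/-. At 2 months the counts were 670 and 130. The 6-month ratio was 0.194 (95% interval 0.162 to 0.230), and 0.493 with the GC trend subtracted. The deleted exons 3 and 4 make up 972 of the 4327 bases of its longest transcript, or 22.5%, so that 77.5% lies elsewhere and still collects reads from any transcript that remains. Cells other than cardiomyocytes keep the gene. The primers that were designed for its quantitative PCR are shown because of where they lie on that transcript.
forward: atgtgttgcgagaagtggaac
reverse: cactgcttttgacatagtagcct
The forward primer matches bases 152 to 172, in exon 1, and the reverse primer bases 286 to 308, in exon 2. Both lie outside the deleted exons, so that neither they nor the whole-gene count reads the deleted part alone.

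The genes of wall stress and of the fetal programme stood highest of the cardiomyocyte groups. Of 14 genes, all measured, 12 were higher and 1 was lower, with a median ratio of 3.92, against 0.976 over all genes compared. With the GC trend subtracted 13 were higher and the median was 3.59, against 1.01. Myh7, the slow β-myosin heavy chain of the fetal ventricle, had 7492 reads in the control and 298863 in csPIMT-/-. Its ratio was 46.0 (44.9 to 47.0), or 30.1 after adjustment. At 2 months its reads were 8325 and 24412. Myh6, the fast adult isoform, had 668479 and 434772 reads at 6 months, a ratio of 0.750 and 0.488 after adjustment. Myh7 thus took 1.11% of the reads of both myosins in the control and 40.7% in csPIMT-/-, after 1.06% and 4.31% at 2 months. Per kilobase of transcript the csPIMT-/- heart held 47972 reads of Myh7 and 71123 of Myh6, and the control 1203 and 109354. The coding sequences of these myosins are alike, so reads could be assigned to the wrong one or dropped.

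Both natriuretic peptides were higher. Nppb had 10694 reads in the control and 77561 in csPIMT-/- at 6 months, after 17239 and 30046 at 2 months. Its 6-month ratio was 8.36 (8.19 to 8.53), or 10.5 after adjustment. Nppa had 80342 and 307872, a ratio of 4.42 (4.38 to 4.45) and 2.98 after adjustment, after 44126 and 163174 at 2 months. Nppa is also made by the atrium. The atrial markers were lower in the csPIMT-/- library at 6 months, as given further on. At 2 months they summed to 77.0 CPM in the control and 3834 in csPIMT-/-, so atrial tissue cannot be told apart in the 2-month Nppa counts. Acta1, the skeletal α-actin of the fetal heart, had 27602 and 90461 reads, a ratio of 3.78 and 2.41 after adjustment. It took 15.3% of the reads of Acta1 and the cardiac actin Actc1 in the control and 34.0% in csPIMT-/-. Ankrd1, a stretch-responsive titin-binding protein, had 35059 and 62939 reads, a ratio of 2.07 (2.04 to 2.10). Hamp, the iron hormone hepcidin, was the lower gene of the group, with 107 and 36 reads. It had 34 and 182 reads at 2 months.

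**Figure D2:**
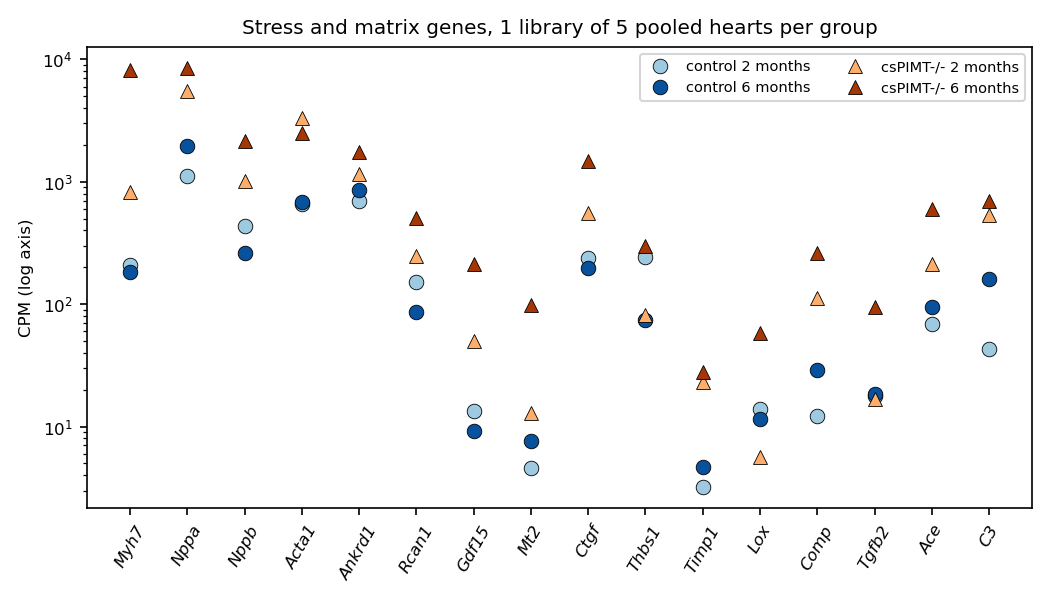
CPM (reads in a library scaled to 1000000), on a log axis, of 16 stress, matrix and signalling genes in the 4 libraries, each a single point for 5 pooled hearts. The dark triangle of csPIMT-/- at 6 months is the highest point for Myh7, Nppa, Nppb, Gdf15 and Ctgf, with Myh7 at 298863 reads against 7492 in the control of that age.

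The promoters of 4 of these genes are printed, since these genes stood higher together in 1 pair of libraries. Each line holds 300 bases of RefSeq on GRCm38.p6, from 250 before the annotated start to 50 after it, 5′ to 3′ on the gene's strand. Capitals mark the CArG box, which serum response factor binds, and the letters GGAATG on either strand, known as MCAT, which TEAD factors bind.
Acta1: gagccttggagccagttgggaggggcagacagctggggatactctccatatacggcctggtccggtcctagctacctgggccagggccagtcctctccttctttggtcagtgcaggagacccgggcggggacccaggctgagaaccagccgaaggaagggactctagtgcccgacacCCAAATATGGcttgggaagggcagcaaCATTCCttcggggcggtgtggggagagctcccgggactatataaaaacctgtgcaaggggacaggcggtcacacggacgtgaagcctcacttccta
Ankrd1: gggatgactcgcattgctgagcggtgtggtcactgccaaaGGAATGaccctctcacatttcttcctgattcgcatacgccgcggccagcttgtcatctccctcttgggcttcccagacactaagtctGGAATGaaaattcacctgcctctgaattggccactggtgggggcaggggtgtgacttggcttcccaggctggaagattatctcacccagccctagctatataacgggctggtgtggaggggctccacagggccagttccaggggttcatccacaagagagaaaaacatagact
Nppb: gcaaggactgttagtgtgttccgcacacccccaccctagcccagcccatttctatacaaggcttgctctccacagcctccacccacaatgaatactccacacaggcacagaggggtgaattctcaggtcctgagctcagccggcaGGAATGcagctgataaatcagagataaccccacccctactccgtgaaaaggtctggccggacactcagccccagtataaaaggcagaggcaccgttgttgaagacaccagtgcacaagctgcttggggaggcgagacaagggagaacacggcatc
Nppa: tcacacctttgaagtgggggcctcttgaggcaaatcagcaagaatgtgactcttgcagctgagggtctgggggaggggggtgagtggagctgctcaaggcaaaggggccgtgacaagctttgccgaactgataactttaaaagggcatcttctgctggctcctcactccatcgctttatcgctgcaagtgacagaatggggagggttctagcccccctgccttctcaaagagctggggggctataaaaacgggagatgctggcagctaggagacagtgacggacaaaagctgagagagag
They lie at chr8:123894726-123895025 on the minus strand for Acta1, chr19:36119795-36120094 on the minus strand for Ankrd1, chr4:147985650-147985949 on the plus strand for Nppb and chr4:148000472-148000771 on the plus strand for Nppa. Acta1 held a CArG box from -73 to -64 and an MCAT match from -46 to -41. Ankrd1 held MCAT matches at -210 and -123, and Nppb held one at -105. No exact match of either motif is in the window of Nppa. Only CC, a run of A or T letters, and GG was taken as a CArG box, so near matches were not marked. The Nppa window holds ctttaaaagg, which differs from that pattern at a single letter. Of the 13 genes of the group with a promoter in the table, 5 held an MCAT match, Nppb, Myh7, Acta1, Ankrd1 and Mybpc2, beside 16.6% of all 27025 genes with a promoter. A CArG box was in 2, Acta1 and Fhl1, beside 1.81% of all. A match of these letters is a description of the sequence and not a shown binding site.

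Sarcomere and Z-disc genes stayed near the level of the control as a group, with single members far off it. Of 31 genes 4 were lower and 3 higher, and the median ratio was 0.902, or 0.880 with the GC trend subtracted. Ttn, the giant spring of the sarcomere, had 2783555 reads in the control and 685654 in csPIMT-/-, a ratio of 0.284 (0.283 to 0.285) and 0.379 with the GC trend subtracted. It took 6.84% of all reads of the control library and 1.90% of the csPIMT-/- library, after 5.42% and 2.91% at 2 months. Nebl, the nebulin-like Z-disc protein, had 11510 and 1622 reads, a ratio of 0.162. At the other end Synpo2l, a Z-disc actin-binding protein, had 2804 and 15205 reads, a ratio of 6.25. Mybpc3, the cardiac myosin-binding protein C, was at 1.89, Actn2 at 1.72 and Tcap at 1.28, all within 2-fold. With the GC trend subtracted they were at 1.23, 1.17 and 0.756.

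Genes of the intercalated disc and the dystrophin complex, which couple cardiomyocytes to each other and to the matrix, were 10 of 24 lower and 1 higher, with a median ratio of 0.693. After adjustment 5 were lower, none was higher and the median was 0.766. The lowest was Cxadr, a junction protein, with 7358 and 958 reads, a ratio of 0.150 (0.140 to 0.161) and a GC-adjusted ratio of 0.381. Dmd, the dystrophin gene, had 30562 and 5050 reads, a ratio of 0.190, or 0.504 with the GC trend subtracted. Gja1, the main gap junction protein of the ventricle, had 25478 and 9612 reads, a ratio of 0.435 that became 1.08 once the GC trend was subtracted.

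Calcium handling genes were 13 of 39 lower and 6 higher, with a median ratio of 0.702, and 6 lower and 4 higher with a median of 0.870 after adjustment. Of all genes 25.7% were lower and 16.0% higher, and 13.4% and 14.2% after adjustment. The higher count before adjustment and the lower count after it were thus near the shares of all genes. Atp2a2, the sarcoplasmic reticulum calcium pump, had 267676 reads in the control and 109832 in csPIMT-/-, a ratio of 0.473 (0.470 to 0.476) and a GC-adjusted ratio of 0.568. Its reads at 2 months were 257841 and 146042, a ratio of 0.791. Pln, the inhibitor of that pump, had 168044 and 36467 reads, a ratio of 0.250, which became 0.800 after adjustment. Ryr2, the calcium release channel, was at 0.524, Casq2, the calcium store protein, at 0.628, and Slc8a1, the sodium-calcium exchanger, at 0.661. The adjusted ratios of these 3 genes were 0.540, 0.856 and 1.91. Members at both ends stayed past 2-fold after adjustment. Cacna1h, a T-type calcium channel, had 1245 and 91 reads, a ratio of 0.0842 and an adjusted ratio of 0.0508. Rcan1, a calcineurin regulator that calcineurin itself turns on, had 3497 and 18428 reads, a ratio of 6.07 (5.86 to 6.30) and 4.22 after adjustment.

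Among sodium, potassium and pacemaker channels, 11 of 32 were lower and 6 higher, with a median ratio of 0.954. With the GC trend subtracted 11 were lower, 4 higher and the median 0.701. Kcnj2, the inward rectifier that sets the resting potential, had 6870 and 611 reads, a ratio of 0.102 (0.0942 to 0.111). Kcnd2, a transient outward channel, had 3032 and 426 reads, a ratio of 0.162. Their adjusted ratios were 0.277 and 0.319. Kcnip2, the partner subunit of that outward current, was at 0.998, with 2764 and 2394 reads.

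Adrenergic and cyclic nucleotide signalling genes were 10 of 31 lower and 1 higher, with a median ratio of 0.699, and 8 lower and none higher with a median of 0.931 after adjustment. Of all genes 25.7% were lower, and 13.4% after adjustment. Akap5, which anchors protein kinase A near the β-receptor, had 720 reads in the control and 2 in csPIMT-/-, a ratio of 0.0032 (0.000387 to 0.0116). At 2 months it had 332 and 18. Adrb1, the β1-adrenergic receptor, had 702 and 267 reads, a ratio of 0.438 and 0.270 after adjustment, after 701 and 445 at 2 months. Gnai2, an inhibitory G protein subunit, was just past the fold at 2.05, and at 1.32 after adjustment. Of 12 measured genes of the endothelin, angiotensin and aldosterone system 5 were higher and 3 lower, and 5 and 1 after adjustment. Ace, the angiotensin-converting enzyme, had 3869 and 21786 reads, a ratio of 6.49 (6.27 to 6.72). Edn3, an endothelin, had 6 and 435 reads, a ratio of 83.5 (38.1 to 229), and Agtr1a, the angiotensin receptor, 1303 and 391, a ratio of 0.346 and 0.512 after adjustment.

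Mitochondrial genes did not move as 1 block. The subunits of the respiratory chain had medians above that of all genes, at 1.19 for complex I, 1.11 for complex II, 1.20 for complex III, 1.25 for complex IV and 1.12 for ATP synthase. With the GC trend subtracted these were 0.897, 0.964, 0.880, 1.14 and 1.22. Of 35 measured subunits of complex I 4 were lower and none was higher. Ndufa5 had 9373 reads in the control and 1416 in csPIMT-/-, a ratio of 0.174 (0.165 to 0.184) and 0.166 after adjustment. Ndufs1, the largest core subunit, had 40863 and 9523 reads, a ratio of 0.269 and 0.479 after adjustment. The highest, Ndufa11, was at 1.65. After adjustment 2 of complex I were lower and 3 higher. Complex II had 1 lower subunit of 4 both before and after adjustment, and ATP synthase 2 before and 1 after. Some other subunits were low before adjustment only. Uqcrb of complex III went from 0.261 to 0.748, Cox7b of complex IV from 0.407 to 1.04 and Atp5f1 of ATP synthase from 0.350 to 1.22.

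Assembly factors of the chain and genes of mitochondrial DNA had lower medians than its subunits before adjustment, and after it the assembly factors lay among them. Assembly factors were 10 of 27 lower and 2 higher, with a median ratio of 0.702, and 0.910 with 2 lower and 2 higher after adjustment. Ndufaf4, an assembly factor of complex I, had 3554 and 617 reads, a ratio of 0.200, or 0.607 after adjustment. Genes of mitochondrial DNA upkeep, transcription and translation were 9 of 21 lower and 0 higher, with a median of 0.696, and 6 lower and 0 higher after adjustment, with a median of 0.722. Mtif2, a mitochondrial translation initiation factor, had 2721 and 275 reads, a ratio of 0.116 and 0.228 after adjustment. Mitochondrial ribosomal proteins, 76 in all, had 10 lower, 2 higher and a median of 1.08, and 7 lower, 8 higher and a median of 1.05 after adjustment. Of 31 genes of mitochondrial import and chaperones 7 were lower and 2 higher, with a median of 0.977. After adjustment 3 were lower and 3 higher, with a median of 1.05. Hspd1, the mitochondrial chaperonin, had 11532 and 1186 reads, a ratio of 0.119 (0.112 to 0.126) and 0.168 after adjustment. The protease Lonp1 was at 2.03, or 1.32 after adjustment. Mitochondrial fission, fusion and mitophagy genes were 6 of 26 lower and 3 higher, with a median of 1.02. After adjustment 3 were lower and 4 higher, with a median of 1.06. Of the genes that shape mitochondria, Dnm1l, the fission dynamin, was at 0.173 and Opa1, which fuses inner membranes, at 0.230. Their adjusted ratios were 0.479 and 0.497. Pink1, the mitophagy kinase, was at 1.58 and Gabarapl1, an autophagosome protein, at 3.14, or 0.969 and 2.38 after adjustment.

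Fatty acid oxidation, the main fuel route of the adult heart, had a low median with and without the GC trend. Of its 25 mitochondrial genes 8 were lower and none was higher, and 19 had ratios below 1, with a median ratio of 0.639 and of 0.648 with the GC trend subtracted. After adjustment 8 were lower and none higher, and 4 genes were lower both ways. Of all genes 25.7% were lower before adjustment and 13.4% after it. Decr1, which handles unsaturated acyl chains, had 16809 reads in the control and 2717 in csPIMT-/-, a ratio of 0.186 (0.179 to 0.194). Acadm, the medium-chain dehydrogenase, had 37734 and 8891 reads, a ratio of 0.272, after 33371 and 10946 at 2 months. Hadha, of the trifunctional protein, had 67458 and 27558, a ratio of 0.471. The adjusted ratios of these genes were 0.363, 0.335 and 0.404. This group as a whole took 11724 CPM in the control and 6851 in csPIMT-/-, after 14313 and 10696 at 2 months. Acsl1, which activates fatty acids, was at 0.465 and at 0.868 after adjustment. Fatty acid uptake and triglyceride storage genes were 5 of 22 lower and 1 higher, with a median of 1.10. After adjustment 3 were lower and 1 higher, with a median of 0.990. Cd36, the fatty acid transporter, had 67452 and 20085 reads, a ratio of 0.343 that became 1.11 after adjustment. Fabp3, the binding protein of the cardiomyocyte, was at 1.12, or 0.798 after adjustment. Gpihbp1, which holds lipoprotein lipase on the capillary wall, was at 3.49 with 4454 and 13477 reads, or 2.53 after adjustment.

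In the tricarboxylic acid cycle 4 of 18 genes were lower before adjustment, near the share of all genes, and none was higher. After it 1 was lower, and the medians before and after were 0.816 and 0.811. Sucla2, the ATP-forming succinyl-CoA synthetase subunit, had 31458 and 2306 reads, a ratio of 0.0845 (0.0809 to 0.0881) and 0.190 after adjustment. Its reads at 2 months were 18765 and 2921. Idh3a was at 0.399 and Cs, citrate synthase, at 0.616, and at 0.564 and 0.742 after adjustment. Ketone and branched-chain amino acid breakdown had 9 of 22 genes lower and 1 higher, and 3 lower and 2 higher after adjustment, with medians of 0.715 and 0.828. Hibch, of valine breakdown, had 4052 and 567 reads, a ratio of 0.161. Bdh1, the ketone body dehydrogenase, was the higher gene, with 4359 and 9813 reads, a ratio of 2.59 and 2.07 after adjustment. Its 2-month reads were 96 and 5910, so the control libraries differed as well. In the pyruvate dehydrogenase group 4 of 13 were lower, near the 25.7% of all genes, and none higher, with a median of 0.689. After adjustment 1 was lower, a smaller share than the 13.4% of all genes, with a median of 0.973. Pdha1 was at 0.310, or 0.526 after adjustment. Pdk4, the kinase that turns the complex off, was at 0.997, or 1.83 after adjustment, with 13483 and 11667 reads. It had 40484 and 3745 at 2 months.

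Glucose uptake and glycolysis genes were 6 of 26 higher and 2 lower, with a median ratio of 1.56, and 6 higher and 1 lower with a median of 1.15 after adjustment. Slc2a1, the fetal and stress-related glucose transporter, had 662 and 2472 reads, a ratio of 4.30 (3.95 to 4.70). Slc16a3, a lactate exporter, had 243 and 1293, a ratio of 6.13. These remained at 3.04 and 3.96 after adjustment. Pfkm, the muscle phosphofructokinase, was at 0.935 and Ldhb at 1.05, or 0.644 and 0.781 after adjustment. Of the creatine kinases Ckm was at 0.971 and the mitochondrial muscle form Ckmt2 at 1.18, while Ckmt1, the ubiquitous mitochondrial form, had 28 and 584 reads, a ratio of 24.0 (16.5 to 36.5). Among 25 energy transcription factors and coactivators 6 were lower, near the share of all genes, and 1 higher. After adjustment 2 were lower and 3 higher. Ppara, the receptor of fatty acid metabolism, was at 0.577 and at 0.487 after adjustment. Ppargc1a, its coactivator, was at 0.447 and Esrrg at 0.413, and after adjustment at 1.17 and 0.998. Med1 and Ncoa6, coactivators tied to PIMT by binding, were at 0.481 and 0.624, and at 0.692 and 0.633 after adjustment. Klf15 was the higher one, at 2.98, or 2.04 after adjustment.

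**Figure D3:**
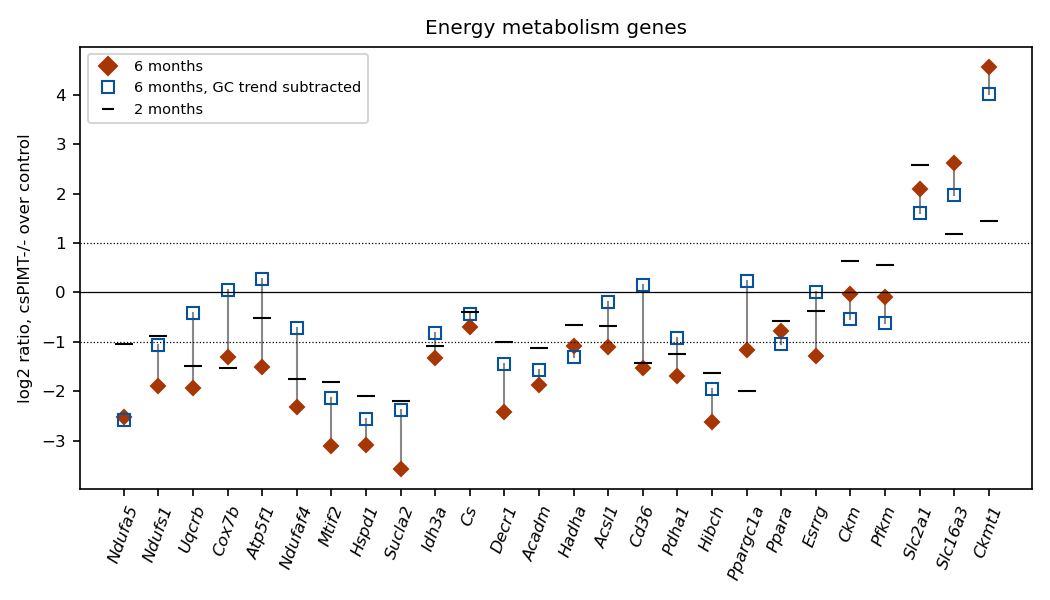
Log2 ratios of 26 genes of energy metabolism at 6 months before (filled diamonds) and after (open squares) the GC trend was subtracted, and at 2 months (dashes), with dotted lines at 2-fold. Sucla2, Acadm, Decr1 and Hspd1 stay below the lower line after adjustment, whereas Cd36, Cox7b, Atp5f1 and Ppargc1a move to above 0.

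Stress responses inside the cell were higher in part. Integrated stress response genes were 10 of 28 higher and 2 lower, with a median ratio of 1.63. After adjustment 9 were higher and 1 lower, with a median of 1.41. Gdf15, the secreted stress hormone, had 371 reads in the control and 7650 in csPIMT-/-, a ratio of 23.8 (21.4 to 26.4), after 531 and 1490 at 2 months. Atf3 had 527 and 1383, a ratio of 3.02, but 2963 and 612 at 2 months. The enzymes Asns and Mthfd2, classical targets of the pathway, were at 1.61 and 1.86, Asns at 2.07 after adjustment, and Aldh1l2 was at 0.154. Of 28 antioxidant genes 8 were higher and none lower, and 7 were higher after adjustment, with medians of 1.52 and 1.48. Only 4 genes were higher both ways. Mt2, a metallothionein, had 312 and 3568 reads, a ratio of 13.2 (11.7 to 14.8), and Hmox1 526 and 1309, a ratio of 2.87. Heat shock and endoplasmic reticulum stress genes were 5 of 30 lower and 6 higher, with a median of 1.18. After adjustment none was lower and 4 were higher, with a median of 1.12. The small heat shock genes Hspb1, with 3280 and 9832 reads, and Cryab, with 12833 and 32504, were at 3.45 and 2.92. Both were at 2.03 after adjustment. The endoplasmic reticulum chaperones Hsp90b1 and Hspa5 were at 0.210 and 0.488, and at 0.530 and 0.822 after adjustment. Among muscle ubiquitin ligases and apoptosis genes 7 of 28 were lower, near the share of all genes, and 2 higher. After adjustment none was lower and 2 were higher. Fbxo32 was at 0.484, or 0.784 after adjustment, Trim63 at 1.40, and Bcl2l1, a survival factor, had 1559 and 9114 reads, a ratio of 6.74.

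Cell cycle genes had the largest share of lower members of the 26 lists plotted. Of 24 genes 14 were lower and none higher, with a median ratio of 0.492, and 12 with a median of 0.505 after adjustment. Mki67 had 2187 and 236 reads, a ratio of 0.124 (0.108 to 0.142), after 1292 and 147 at 2 months. Top2a had 1513 and 126, a ratio of 0.0960, and the mitotic kinase Bub1 had 128 and 8, a ratio of 0.0720. Ccnd1, a cyclin of early G1, was at 1.49.

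**Figure D4:**
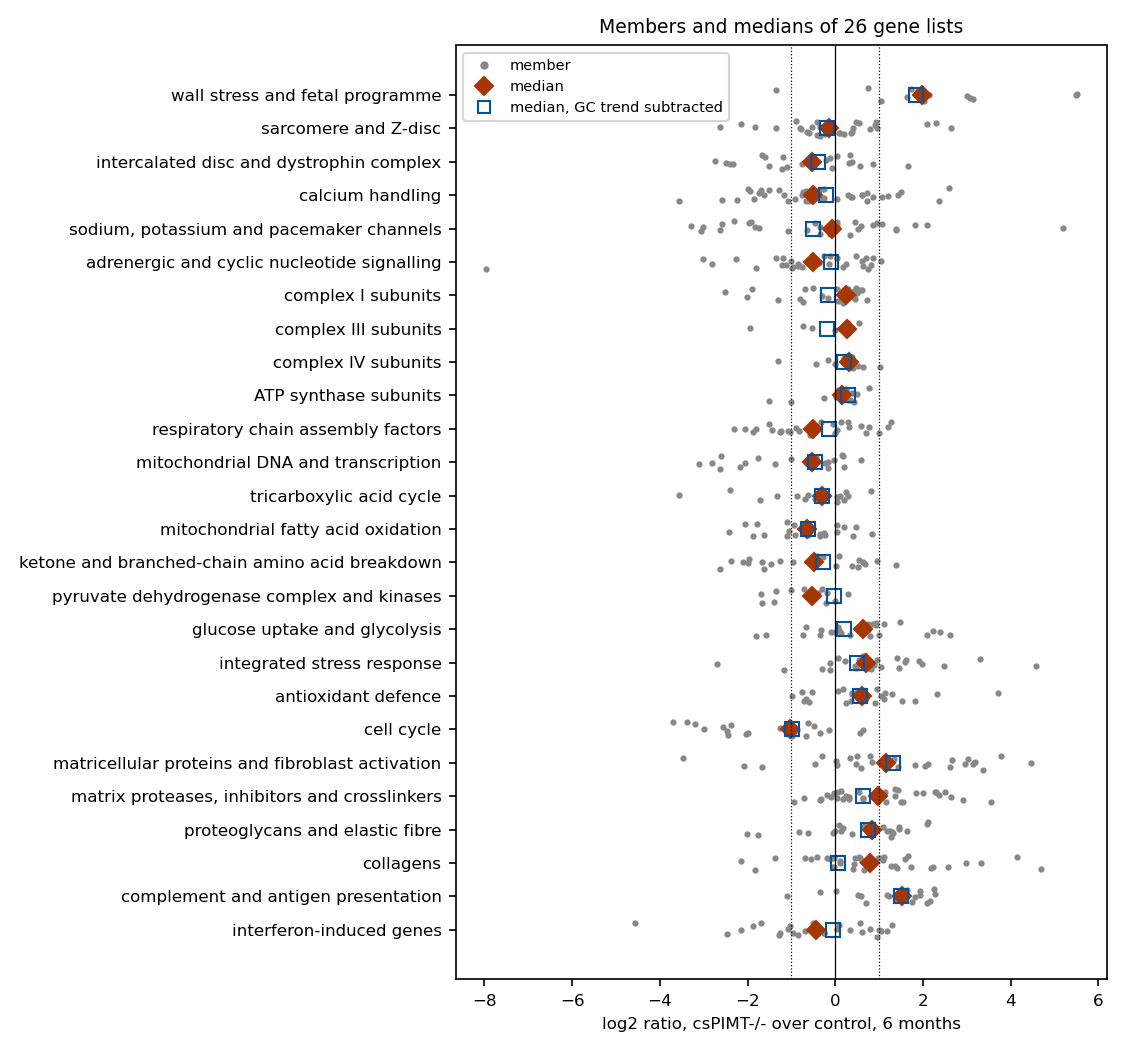
Log2 ratios at 6 months of the measured members (grey dots) of 26 gene lists, with the list median as a filled diamond and the median after the GC trend was subtracted as an open square, and dotted lines at 2-fold. The stress, matricellular and complement lists lie to the right, with medians of 3.92, 2.24 and 2.88 as ratios, and the cell cycle list to the left at 0.492.

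Matrix gene groups other than the integrins and laminins had medians of 1.72 or above before adjustment. Matricellular proteins and genes of fibroblast activation were 16 of 29 higher and 3 lower, with a median ratio of 2.24, and 16 higher, 14 of them the same genes, with a median of 2.48 after adjustment. Ctgf, a matricellular mediator of fibrosis, had 7964 reads in the control and 53340 in csPIMT-/-, a ratio of 7.72 (7.54 to 7.90), after 9505 and 16628 at 2 months. Comp had 1188 and 9441 reads, a ratio of 9.16, and Cilp 2410 and 13213, a ratio of 6.32. Thbs1, thrombospondin, had 2997 and 10752, a ratio of 4.13, and Postn, periostin, had 9408 and 14532, a ratio of 1.78. After adjustment Postn was at 6.39, and against the 2-month control at 0.817. At 2 months both had been lower, with 9705 and 2441 reads of Thbs1 and 20966 and 5393 of Postn. Fn1 was at 1.50. Wisp1 was the lowest, with 771 and 60 reads, a ratio of 0.0897.

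Enzymes that cut and cross-link the matrix, with their inhibitors, were 17 of 37 higher and none lower, with a median ratio of 1.96, and 13 higher and 1 lower with a median of 1.55 after adjustment. Timp1, a protease inhibitor, had 189 reads in the control and 1014 in csPIMT-/-, a ratio of 6.18 (5.29 to 7.26), and Mmp2 6572 and 16649, a ratio of 2.92 and 1.97 after adjustment. Lox, which cross-links collagen, had 472 and 2100 reads, a ratio of 5.13 (4.64 to 5.68), but 551 and 169 at 2 months. Proteoglycans and elastic fibre genes were 11 of 24 higher and 2 lower, with a median of 1.80. After adjustment 8 were higher, 4 of them the same genes, and 1 lower, with a median of 1.67. Mgp, the matrix Gla protein, had 9244 and 34581 reads and Bgn, biglycan, 11921 and 32338, with ratios of 4.31 and 3.13. Ogn was the lowest at 0.248, or 0.889 after adjustment, and Dcn was at 1.31, or 4.46 after adjustment.

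Collagens had the largest change of median with the GC trend among the matrix groups. Of 41 measured genes 16 were higher and 3 lower, with a median ratio of 1.72, and 11 were higher and 5 lower with a median of 1.05 after adjustment. Collagen transcripts had a median GC content of 55.2%, against 49.8% over all genes. Col9a2 was the highest, with 27 and 610 reads, a ratio of 26.0 (17.7 to 39.8) and 15.1 after adjustment. In the TGF-beta and BMP group 10 of 28 were higher and 5 lower, and 6 higher and 4 lower after adjustment. Both ways 3 were higher and 3 lower. Tgfb2 had 752 and 3419 reads, a ratio of 5.24 (4.84 to 5.68), after 711 and 504 at 2 months. Tgfb1 and Tgfb3 were at 2.39 and 2.45, or 1.84 and 1.83 after adjustment, and Inhbb, an activin subunit, at 8.29 with 101 and 727 reads. Of 32 integrin and laminin genes 8 were higher and 6 lower, and after adjustment 5 and 2. Itgb5 was at 3.60, or 2.30 after adjustment. Itgb6, the β-chain of an integrin that activates latent TGF-beta, was at 0.103 with 2611 and 234 reads, or 0.209 after adjustment. In the insulin-like growth factor system 7 of 16 were higher and 4 lower, and 3 and 3 after adjustment. There Igfbp6 was at 5.75, and Igf1 at 0.338 became 1.12 after adjustment.

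Complement and antigen presentation genes were 12 of 18 higher and 1 lower, with a median ratio of 2.88, and 2.81 after adjustment, when 12 were higher, 10 of them the same genes. C3, the central complement factor, had 6569 reads in the control and 25313 in csPIMT-/-, a ratio of 4.44 (4.32 to 4.56). C4b had 2317 and 9571, a ratio of 4.76. The class II genes H2-Ab1 and Cd74 were at 4.83 and 3.52, or 3.06 and 2.27 after adjustment. The 2-month median of the group was 6.35, so its ratio was not smaller at the earlier age. The control libraries differed too, with 1705 reads of C3 at 2 months. Chemokine and cytokine genes went both ways, 13 of 31 higher and 11 lower, and 12 higher and 5 lower after adjustment. Cxcl14 had 60 and 1209 reads, a ratio of 23.2, and Cxcl9 193 and 9, a ratio of 0.0537. Ccl2, which draws monocytes, had 122 and 34, a ratio of 0.321 and 0.640 after adjustment. Interferon-induced genes were 9 of 28 lower and 3 higher, with a median of 0.740, against 1.83 at 2 months. After adjustment 5 were lower and 1 higher, with a median of 0.971, and against the 2-month control the median was 1.58. Iigp1 had 6306 reads in the 6-month control and 232 in csPIMT-/-. Its 2-month counts were 426 and 266, so that the 6-month control stands apart from the other 3 libraries for this gene. Over the whole list that control also held the most, at 929 CPM, against 450 in the 2-month control and 748 and 630 in csPIMT-/- at 2 and 6 months.

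Markers of the cell types that a heart sample can hold were read in every library. Fibroblast markers summed to 3286 CPM in the 6-month control and 5955 in csPIMT-/-, and 3 of 7 were higher with a median ratio of 1.78. At 2 months they summed to 2491 and 6893 CPM with a median ratio of 0.987, so that sum did not follow most members. Pdgfra, which marks resident fibroblasts, had 6125 and 11851 reads, a ratio of 2.23, Dpep1 was at 5.78 and Dpt at 0.523. Endothelium markers summed to 1641 and 1815 CPM, with Pecam1 at 1.23 and Cdh5 at 1.25. Cldn5, a tight junction protein, was at 3.16 and Emcn at 0.476, or 1.89 and 1.33 after adjustment. Smooth muscle and pericyte markers summed to 1409 and 1169, with 1 of 9 lower, none higher and a median of 1.02. After adjustment 2 were lower and none higher, with a median of 0.788. Rgs5, a pericyte gene, was at 0.377, or 1.02 after adjustment, and Myh11, of smooth muscle, at 0.550, or 0.407 after adjustment. Macrophage markers summed to 869 and 1462, with 5 of 12 higher and 1 lower, and 2 and 1 after adjustment. Cd68 was at 2.10 and C1qb at 2.38, or 1.58 and 1.51 after adjustment. Ccr2, the receptor of monocyte-derived cells, had 371 and 93 reads, a ratio of 0.289 and 0.881 after adjustment. T cell markers were sparse, at 151 reads in the control and 150 in csPIMT-/- over 6 genes. The equal sums did not follow most members. Of the 6 genes 5 were higher and none lower on few reads, with a median ratio of 2.86, or 4.02 after adjustment. The 1 gene with 100 or more reads was at 0.633. Neutrophil markers had 69 reads in the control and 512 in csPIMT-/-, with S100a8 at 23 and 198, a ratio of 9.92 (6.43 to 16.0). The part of these cell types in the ratios of the immune and matrix genes was not tested.

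Markers of tissues other than the ventricle were also read. Lung markers summed to 12 and 18 reads over 6 genes, and no one of them reached 10 reads. Atrium markers summed to 1478 CPM in the control and 803 in csPIMT-/-, with 4 of 5 lower. Myl7, an atrial light chain, had 19670 and 7770 reads, and Sln, an atrial calcium pump inhibitor, 4544 and 1619, a ratio of 0.411 and 0.575 after adjustment. At 2 months those genes had 1208 and 34802, and 150 and 10243 reads, so the 2-month libraries differed far more in atrial markers than the 6-month ones. Bmp10 had 7159 and 1037 reads at 6 months and 6 and 6946 at 2 months. Fat markers summed to 66.1 and 89.3 CPM at 6 months and 55.4 and 267 at 2 months. The 6-month sum did not follow most members, of which 4 of 5 had ratios below 1. Of the fat markers 2 were lower and 1 higher, with a median of 0.640, or 0.429 after adjustment. Skeletal muscle markers summed to 228 and 531 reads, with Myh4 at 36 and 122. Red cell markers rested on 2 measured genes, Alas2 and Slc4a1, named here after their values were seen, with 3246 and 11807 reads of the first, and the globin genes Hba-a1, Hba-a2 and Hbb-b1 had 0 reads in both. The female-expressed Xist had 29152 and 12357 reads and the Y-linked Ddx3y 584 and 201, with ratios of 0.488 and 0.397 that became 1.30 and 1.44 after adjustment. At 2 months Xist had 930 and 5166 reads and Ddx3y 3640 and 131, so that they went opposite ways. Rn45s, the precursor of ribosomal RNA, took 0.514% of the reads of the 6-month control and 1.44% of csPIMT-/-, after 0.778% and 1.58% at 2 months. Ribosomal RNA is removed by poly(A) selection, and the part of RNA quality in the ratios was not tested.

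**Figure D5:**
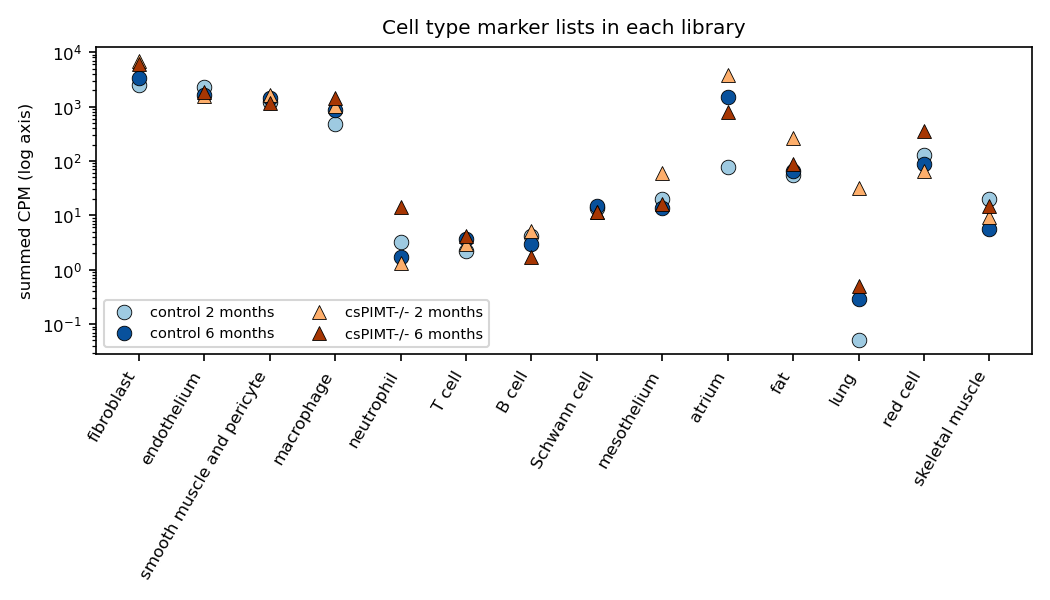
Summed CPM, on a log axis, of 14 lists of cell type markers in the 4 libraries. At 6 months the fibroblast sum was 3286 in the control and 5955 in csPIMT-/-, the neutrophil sum 1.70 and 14.2, and the atrium sum 1478 and 803, whereas the atrium sums at 2 months were 77.0 and 3834.

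Genes of the pathway that PIMT acts in are those of the SMN complex and the assembly of small nuclear ribonucleoproteins. Of 28 such genes 8 were lower, near the 25.7% of all genes, and 1 was higher, with a median ratio of 0.764. After adjustment 2 were lower, a smaller share than the 13.4% of all genes, and 1 was higher, with a median of 0.936. Dkc1, of the small nucleolar particles that guide pseudouridine formation, had 1021 and 174 reads, a ratio of 0.196 and 0.422 after adjustment. Gemin7, of the SMN complex, was at 2.08, or 1.28 after adjustment. Splicing regulators of the heart were 7 of 16 lower and none higher, with a median of 0.545 and, after adjustment, 2 lower, 1 higher and a median of 0.707. Rbfox1 had 1636 and 245 reads, a ratio of 0.173, and Rbm20, which splices titin, was at 0.629, or 0.430 after adjustment. Cytosolic ribosomal proteins, whose many processed pseudogenes make their counts uncertain, were 16 of 80 higher and 8 lower, with a median of 1.49. After adjustment 14 were higher, 6 of them the same genes, and 6 lower, with a median of 1.31. Malat1, a nuclear noncoding RNA of low GC content, was at 0.586 and at 1.42 after adjustment, and H19 at 0.981 and 0.650.

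The far ends of the profile, among genes with 1000 or more reads in 1 of the 6-month libraries, named genes that no list held. Psca, a small membrane-anchored antigen, had 58 reads in the control and 15735 in csPIMT-/-, a ratio of 313 (242 to 412), after 137 and 7427 at 2 months. Krt18, a simple-epithelium keratin, had 174 and 4813, a ratio of 31.9. Serpina3n, a secreted protease inhibitor, had 1288 and 22821, a ratio of 20.4. Map3k6, a stress-activated kinase, had 371 and 9018 reads and Sphk1, which makes sphingosine phosphate, 153 and 3102, with ratios of 28.0 and 23.4. At 2 months these kinases were at 1.27 and 1.68. The protease gene St14 was at 27.3 and Lman1l at 21.5. At the low end Aqp4, a water channel, had 1576 and 25 reads, a ratio of 0.0183 (0.0118 to 0.0271), after 3194 and 172 at 2 months. Cenpf, a kinetochore protein, had 2940 and 49. Tfrc, the transferrin receptor through which cells take up iron, had 22839 and 894 reads, a ratio of 0.0451 (0.0421 to 0.0482) and 0.134 after adjustment, with 46324 and 2151 at 2 months. Mlf1 was at 0.0439, Gpr22, a cardiac orphan receptor, at 0.0474, Akr1c14 at 0.0526 and Krt222 at 0.0563. F830016B08Rik had 3537 reads in the 6-month control but 111 in the 2-month control, so its ratio turned on the 6-month control, as did that of Iigp1. Rpl29, a ribosomal protein gene with pseudogenes, had 2739 and 131 reads at 6 months and 55 and 994 at 2 months. Its values jumped between the libraries of either genotype.

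The ratios of 6 months and those of 2 months are set side by side here. Over 14781 genes compared at both ages, 2457 were lower and 1053 higher at both. A further 1163 were lower at 6 months and within 2-fold at 2 months, and 1068 were higher at 6 months only in that sense. Of all genes compared at 6 months 25.7% were lower and 16.0% higher. The overlap that the shares at each age alone would give was not computed. These counts are not GC-adjusted, and both pairs ran the same way with GC content. The part of that trend in the overlap was not tested. Spearman's rho between the log2 ratios was 0.684, and 0.516 after the GC trend of each pair was subtracted, as a description across genes that share their GC content and transcript length. With 1 library per group no difference between the ages could be tested.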

How the data were processed

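RNA of 5 hearts per group was pooled, and TruSeq directional poly(A) libraries were read as 50-base single ends. Per the labels and the study's methods, the authors trimmed the reads, removed ribosomal RNA reads, aligned the rest to mm10 with STAR and counted them per gene with HTSeq 0.6.1p1 (the submitters' processing notes also name DESeq2). The STAR and DESeq2 versions are not given in the sources used here. The deposited signal is the count divided by a size factor, although 1 column is named as read counts. One read was worth 0.865 to 1.23, and all values were whole reads to within 4.9e-09.

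Reads were compared for genes with 10 or more in 1 library. Size factors were medians of ratios, and intervals were exact Clopper-Pearson at 95%. The median log2 ratio used 0.5 added reads. The GC trend was a lowess curve with span 0.3 (statsmodels 0.14.6) over the longest GENCODE vM21 transcript, known for 98.9% of genes. With 1 library per group there was no test. edgeR 4.0.16 fitted all 4 libraries with age in the model as an alternative only. The ratios, their intervals, the GC trend and the edgeR fit were also run on simulated data, and the other steps were not. The simulated reads for the edgeR fit varied less between libraries than these data.

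Gene lists and members were chosen with earlier results of these data known. Genes named in the text were the list anchors, the lowest and highest member of each list of 5 or more with 100 reads in 1 library, the 10 lowest and 10 highest of all genes with 1000 reads, and Tgs1. Promoters came from RefSeq on GRCm38.p6, the same assembly as mm10. The primers came from the study's primer list. Some items that this rule names are not reported here.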

Additional observations from a re-analysis of the deposited data

Results flagged for a closer look

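Each gene or list here lay past 2-fold in opposite directions at the 2 ages, as csPIMT-/- over control. With 1 library per group these differences were not tested. Matrix and stress genes among them were Lox, at 5.13 at 6 months and 0.428 at 2 months, Thbs1, at 4.13 and 0.351, and Atf3, at 3.02 and 0.288. Of the clock genes Arntl was at 2.12 and 0.248, and Nfil3 at 5.25 and 0.356. Hamp was at 0.388 and 7.48, and Rpl29 at 0.0551 and 25.2. Markers of other tissues formed the rest. The atrium list had a median of 0.455 and 82.5, with Myl7 at 0.455 and 40.2, Sln at 0.411 and 95.4, and Bmp10 at 0.167 and 1617. The red cell list had a median of 4.12 and 0.367, with Slc4a1 at 4.06 and 0.143. Ucp1 of brown fat was at 0.130 and 200, the skeletal muscle gene Myh4 at 3.91 and 0.125, and Xist at 0.488 and 7.76.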

How the results depend on the processing

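Of the count of 3917 lower and 2428 higher genes, the size factor, the minimum of reads and the choice of control moved neither by over 1.5 times. With the GC trend subtracted 2011 were lower, and with a length trend subtracted as well, chosen after seeing the data, 2001. Where the whole 95% interval had to lie past 2-fold, 1591 were higher. The edgeR quasi-likelihood test over all 4 libraries, with age in the model and 1 residual degree of freedom, called 2558 lower and 1682 higher at an adjusted p under 0.05. It compares the genotypes over both ages, on the whole reads recovered from all values. With the GC trend as an offset, also chosen after seeing the data, it called 0 lower and 0 higher at that threshold, with 1802 and 1936 at an unadjusted p under 0.05. The cause was not tested. Of 141 named genes past 2-fold, the GC trend took 40 back within it, the GC and length trends 47, the 2-month control 29 and the sum of both controls 13. Other size factors, minimums of reads or 5 added reads took back 2 at most. No paired analysis was possible because each group is 1 library.

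Over all 188 named genes the ratio crossed 1 in 21 with the GC trend subtracted, in 22 with the length trend as well, in 21 against the 2-month control and in 6 against both controls summed. Those past 2-fold among them are given here. With the GC trend subtracted they were Gja1 at 1.08, Cox7b at 1.04, Atp5f1 at 1.22, Cd36 at 1.11, Ppargc1a at 1.17, Emcn at 1.33, Rgs5 at 1.02, Igf1 at 1.12, Xist at 1.30 and Ddx3y at 1.44. With the length trend subtracted as well, Gja1 was at 1.13, Atp5f1 at 1.16, Cd36 at 1.12, Ppargc1a at 1.25, Esrrg at 1.06, Emcn at 1.36, Rgs5 at 1.07, Igf1 at 1.21, Xist at 1.48 and Ddx3y at 1.52. Against the 2-month control they were Hamp at 1.25, Atf3 at 0.550, Ccr2 at 1.01, Myl7 at 7.58, Sln at 12.7, Bmp10 at 204, Rpl29 at 2.81, Xist at 15.7, Ucp1 at 1.41, Myh4 at 0.612 and Arntl at 0.922. The median of the skeletal muscle markers was then 0.917 and that of the atrium markers 12.7. Against both controls summed Atf3 was at 0.925. Among genes with 100 or more reads the T cell markers, of which 1 was left, had a median of 0.633.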

Other observations

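Circadian clock genes, core and output together, were 5 of 18 higher and 4 lower at 6 months, with a median ratio of 1.27. With GC adjusted for, 3 were higher and 3 lower, and the median was 1.15. Dbp, which follows the time of day, had 5026 reads in the control and 3308 in csPIMT-/- at 6 months and 1718 and 9378 at 2 months. Arntl, which peaks at the opposite phase, had 221 and 406 reads at 6 months and 519 and 92 at 2 months. The time of day at which the hearts were taken is not given in the sources used here.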
